A study of Mus musculus with 12 samples.

Results

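The genes of oxidative phosphorylation were examined in cultured mouse bone marrow mesenchymal stem cells (MSCs) that were driven toward myofibroblasts with transforming growth factor-β1 (TGF-β1). The members were the protein-coding genes whose symbols begin with Nduf, Uqcr, Cox4, Cox5, Cox6, Cox7, Cox8 or Atp5 and carry no pseudogene suffix, which gave 90 of the 55401 genes in the deposited table. They carry 89 symbols, because Atp5o is listed on separate rows. By complex there were 44 members for complex I, 8 for complex III, 20 for complex IV and 18 for complex V. The rule used symbols and no measured value, but it was chosen with earlier results of these data known. It takes in 8 complex I assembly factors named Ndufaf, and it leaves out Cyc1, the mitochondrially encoded subunits and all of complex II, which are described separately as other genes of the pathway.

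The cells were C57BL/6 MSCs, bought from a supplier, and mRNA was sequenced in 4 groups of 3 libraries. Control cells were untreated, the TGF-β1 group received TGF-β1 at 5 ng/mL, and the remaining groups received the same TGF-β1 in culture supernatant of monocytic or granulocytic myeloid-derived suppressor cells (called TGF-β1/M-MDSC and TGF-β1/G-MDSC supernatant). The MDSCs had been induced from bone marrow with GM-CSF and IL-6 and then sorted. No group received a supernatant without TGF-β1, and none received TGF-β1 in MDSC medium that had held no cells. The paper describes a supplemented RPMI medium for the MDSCs and DMEM for the MSCs. Effects of the medium and of MDSC products thus cannot be told apart where a supernatant is compared with TGF-β1 alone. What a replicate number stands for is not given in the sources used here. The p-values thus measure only the spread between these libraries, which may be technical.

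Oxidative phosphorylation takes electrons from NADH at complex I and from succinate at complex II, passes them through ubiquinone, complex III and cytochrome c to oxygen at complex IV, and uses the proton gradient that results to make ATP at complex V, the ATP synthase. Complexes I, III, IV and V are built from subunits of nuclear and mitochondrial genes, and each has catalytic core subunits surrounded by small accessory subunits. MSCs in culture rely to a large part on glycolysis, and the respiratory chain is known to be remodelled when they differentiate. Nuclear genes of the chain are known targets of the transcription factors NRF1, GABP (of the ETS family) and YY1.

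The members share these promoter letters more often than other mouse promoters do. RefSeq promoter windows of 300 bases (250 before and 50 after the start, GRCm38.p6) were found for 73 of the 89 symbols, in 78 windows. The NRF1 motif, GCGCA and GCGC with any base between them, was in 18 windows (23.1%), against 4.60% of all 32851 windows. The GABP/ETS motif CCGGAAG was in 17 windows (21.8%, against 8.86%), and the YY1 motif AAGATGGC was in 11 (14.1%, against 2.75%). Both strands were searched, and the motifs were counted separately. At least 1 of these motifs was in 40 member windows, or 51.3%, against 14.7% of all windows. Among the 14 windows of the 12 members that fell with TGF-β1 (below), the NRF1 motif was in 2, the GABP/ETS motif in 4 and the YY1 motif in 2. A match describes letters in a window and not a bound site. The upstream sequence is shown for 4 members described below, with motif matches in capitals and only bases outside annotated exons. Ndufv3 (chr17:31519865-31520114, plus strand) had the smallest p-value of any member and holds no match. Ndufb6 (chr4:40279422-40279671, minus strand) and Uqcrh (chr4:116075072-116075320, minus strand) hold the GABP/ETS motif in reverse, from 232 to 226 and from 10 to 4 bases before the start. Atp5h (chr11:115419963-115420169, minus strand) holds the NRF1 motif from 141 to 132 bases before the start and the GABP/ETS motif from 38 to 32 bases before it, which lies in an annotated exon and is not printed.
Ndufv3: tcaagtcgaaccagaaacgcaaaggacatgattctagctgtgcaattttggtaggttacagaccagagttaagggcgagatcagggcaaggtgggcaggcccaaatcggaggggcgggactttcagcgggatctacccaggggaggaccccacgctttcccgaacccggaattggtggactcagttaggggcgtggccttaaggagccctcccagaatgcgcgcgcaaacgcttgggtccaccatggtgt
Ndufb6: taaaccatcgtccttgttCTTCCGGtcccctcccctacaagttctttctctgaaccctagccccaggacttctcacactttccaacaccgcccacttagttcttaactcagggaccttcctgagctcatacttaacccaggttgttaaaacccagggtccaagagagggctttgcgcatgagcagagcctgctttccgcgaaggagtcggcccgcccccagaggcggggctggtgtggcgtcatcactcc
Uqcrh: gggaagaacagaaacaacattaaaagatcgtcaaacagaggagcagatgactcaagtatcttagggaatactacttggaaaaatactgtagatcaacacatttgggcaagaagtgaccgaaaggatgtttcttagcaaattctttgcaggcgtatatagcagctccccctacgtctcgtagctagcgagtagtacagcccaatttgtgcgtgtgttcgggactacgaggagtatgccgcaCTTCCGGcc
Atp5h: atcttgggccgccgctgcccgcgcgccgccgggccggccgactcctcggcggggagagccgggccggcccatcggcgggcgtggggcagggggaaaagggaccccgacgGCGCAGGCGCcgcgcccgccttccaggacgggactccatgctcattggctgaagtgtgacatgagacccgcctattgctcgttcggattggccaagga

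Libraries held from 73977669 to 84565450 counts, and at this depth the spread between libraries, rather than counting error, set the precision for most members. Levels are given as FPKM (fragments normalised to exon length and to sequencing depth), which the authors computed. Tests used the counts, scaled by trimmed means of M-values (TMM), in 1 edgeR fit of all 12 libraries, and the 12016 genes that reached 1 FPKM in 3 or more libraries were tested. A gene is called when its p-value is under 0.05 after Benjamini-Hochberg adjustment across these genes. TMM factors were 1.021 to 1.026 in Control and 0.978 to 0.983 with TGF-β1, so FPKM, which lacks this scaling, lies slightly lower with TGF-β1 than the tested values do. Of 7 MSC markers, Cd44, Itgb1, Ly6a and Pdgfrb had a median of 35.8 FPKM or more, Pdgfra was at a median of 5.90 and Thy1 at 2.03 FPKM, and Eng reached at most 0.968 FPKM. Ly6a spanned 13.0 to 251 FPKM, and of the 6 MSC markers tested 3 rose and 3 fell with TGF-β1. Of genes that MSCs should lack, Kit was listed at 0 in 8 libraries and Pecam1 was at 0.067 to 0.218 FPKM. Of the 10 myeloid markers, Ptprc, Itgam and S100a8 were at 0 in 7 libraries each, S100a9 in 8 and Mpo in all 12. Ly6g, Ly6c2 and Lyz2 reached 1.89, 1.83 and 2.29 FPKM and S100a9 3.40 FPKM, while Csf1r (0.525 to 1.34 FPKM) and Cd14 (12.4 to 23.6 FPKM) were present in every library. Of the 5 tested, 3 fell and 1 rose with TGF-β1, and 2 (Lyz2 and Cd14) rose with each supernatant against TGF-β1 alone. The summed level of the 10 myeloid markers was 26.9 to 27.9 FPKM in Control and 13.6 to 15.8 with TGF-β1. It was 20.5 to 25.9 with M-MDSC supernatant and 25.8 to 29.3 with G-MDSC supernatant. Cd14 alone made up most of this sum in every library, Control included. The part of the myeloid markers in the results was not tested. In such bulk RNA, fewer cells of a type and less RNA per cell cannot be told apart.

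Of the 90 members, 82 passed the filter on low values, and the other 8 were 7 tissue or condition isoforms, described below, and the second row of Atp5o, which had 0 counts in every library. The level of a tested member, as a mean over the 12 libraries, ran from 0.989 FPKM (Cox6a2) to 329.5 FPKM (Atp5b), with a median of 41.3 FPKM, against a median of 6.34 FPKM over all genes tested. Above that latter median lay 74 members, and 69 members exceeded 10 FPKM. Atp5b, the catalytic β subunit of F1, led complex V, where Atp5g1 was lowest at 14.7 FPKM. Cox8a, a small subunit of complex IV, led its complex at 242 FPKM. In complex III, Uqcr10 (96.6 FPKM) and Uqcrb (30.2 FPKM) marked the ends of the range. In complex I, Ndufa2 stood highest at 104 FPKM and the assembly factor Ndufaf3 lowest at 1.43 FPKM. These levels depend on the exon length used by the authors, which the counts and FPKM together put between 0.467 kb (Ndufa1) and 9.02 kb (Ndufs1), so a gene with long annotated exons is listed low for its counts.

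Summed over members, the mean level of every complex was highest in Control, and complex I had the widest gap to TGF-β1 for its level. Its summed level was 1395, 1552 and 1470 FPKM in the Control libraries, 1256, 1304 and 1360 FPKM with TGF-β1, 1343, 1364 and 1352 FPKM with M-MDSC supernatant, and 1360, 1407 and 1269 FPKM with G-MDSC supernatant. Control and TGF-β1 libraries did not overlap, while both supernatant groups overlapped the TGF-β1 range and G-MDSC replicate 2 exceeded Control replicate 1. The sums for complex III were 512 ± 13.2 FPKM (SD, n = 3) in Control, 477 ± 18.6 with TGF-β1, 479 ± 8.41 with M-MDSC and 483 ± 17.1 with G-MDSC supernatant. For complex IV they were 1485 ± 84.6, 1363 ± 41.7, 1389 ± 11.5 and 1383 ± 64.1 FPKM in the same order, and Control and TGF-β1 overlapped. For complex V they were 1327 ± 35.9, 1233 ± 49.6, 1299 ± 21.4 and 1243 ± 53.2 FPKM. All of these sums lack the TMM scaling, so part of each gap between Control and TGF-β1 lies in the scaling. Of all counts, the members took 0.884% to 0.951% in Control, 0.820% to 0.882% with TGF-β1, 0.881% to 0.899% with M-MDSC supernatant and 0.837% to 0.898% with G-MDSC supernatant. Within Control, TGF-β1 and G-MDSC supernatant, the libraries took the same order by this share as by the share of ribosomal protein genes (4.92% to 5.46% of counts over all libraries). The mean ribosomal protein share itself was 5.15% in Control and 5.16% with TGF-β1. The part of this shared library variation in single results was not tested.

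**Figure D1:**
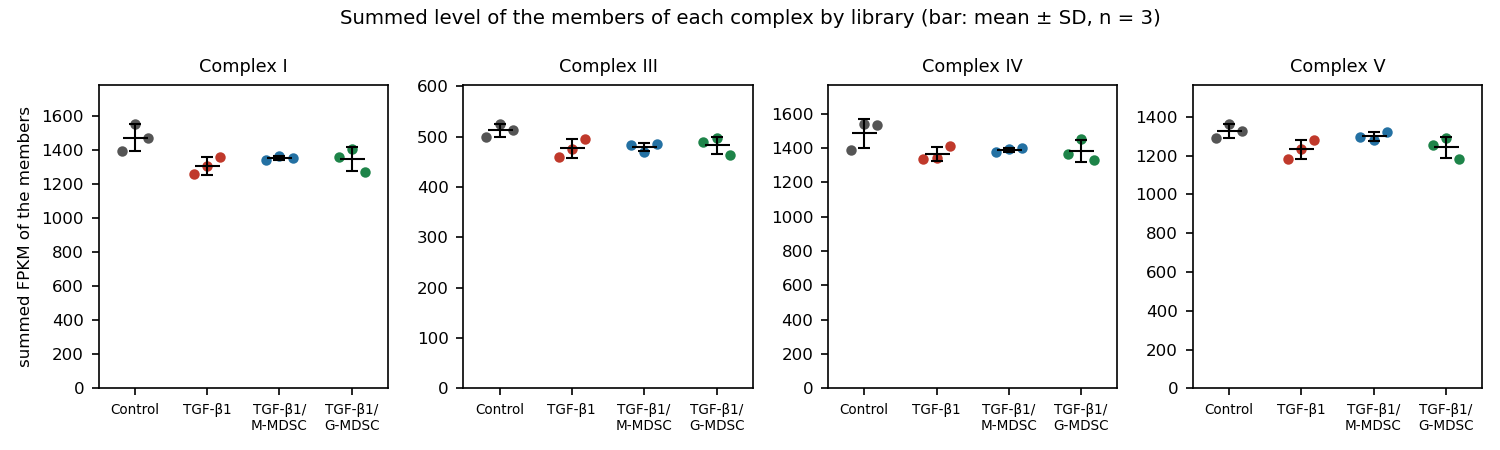
Summed FPKM, without TMM scaling (y axis), of the members of complexes I, III, IV and V in the 3 libraries (points) of each group (x axis), with the mean and SD. In complex I the Control libraries, at 1395 to 1552 FPKM, all lie above the TGF-β1 libraries, at 1256 to 1360 FPKM, while in complex IV those groups overlap.

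Where a subunit has paralogous forms, the MSCs held mainly the widely expressed form and little or none of the tissue form in all 4 groups. Cox4i1, the common form of the subunit through which ATP regulates complex IV, was at 142 FPKM on average, whereas Cox4i2, known from lung and hypoxia, had 0 to 8 counts. Cox6a1 was at 224 FPKM, and its heart and muscle form Cox6a2 was at 0.263 to 2.03 FPKM. Cox7a2 was at 72.6 FPKM, and the muscle form Cox7a1 had at most 16 counts. Cox6b1, Cox7b and Cox8a were at 210.4, 133 and 242 FPKM. Their testis forms Cox6b2 (0 to 14 counts), Cox7b2 (0 counts in every library) and Cox8c (0 counts in every library) and the muscle form Cox8b were at or near 0. Cox8b had 11 and 8 counts in Control replicates 2 and 3 and 0 in the other 10 libraries. Ndufa4, once assigned to complex I and counted here with complex IV, to which it is now assigned, was at 96.6 FPKM. Its hypoxia-induced paralogue Ndufa4l2 stayed under the filter, at 0.622, 1.01 and 0.990 FPKM in Control, 0.473, 0.493 and 0.305 FPKM with TGF-β1, 0.407 to 0.437 FPKM with M-MDSC supernatant and 0.879, 1.01 and 0.248 FPKM with G-MDSC supernatant. The Control libraries lay above those with TGF-β1, with 31 to 103 counts per library behind these values. It was tested only with no filter on low values, where edgeR gave a log2 fold change of -0.96 ± 0.44 (SE; adjusted p = 0.223). Of the genes for the c subunit of the ATP synthase ring, which encode the same mature protein, Atp5g2 (95.3 FPKM) and Atp5g3 (82.7 FPKM) exceeded Atp5g1 (14.7 FPKM). That gap in FPKM rests in part on an implied exon length of 5.48 kb for Atp5g1, against 1.87 kb for Atp5g2 and 2.43 kb for Atp5g3. A near-identical copy held 43.4% of the counts of Atp5g1 and its copy together (below), and copies held 21.2% for Atp5g2. The part of the copies in the gap was not tested. The mean counts of Atp5g1, Atp5g2 and Atp5g3 were 6384, 14145 and 15982. None of the tested isoforms was called by edgeR in any comparison.

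**Figure D2:**
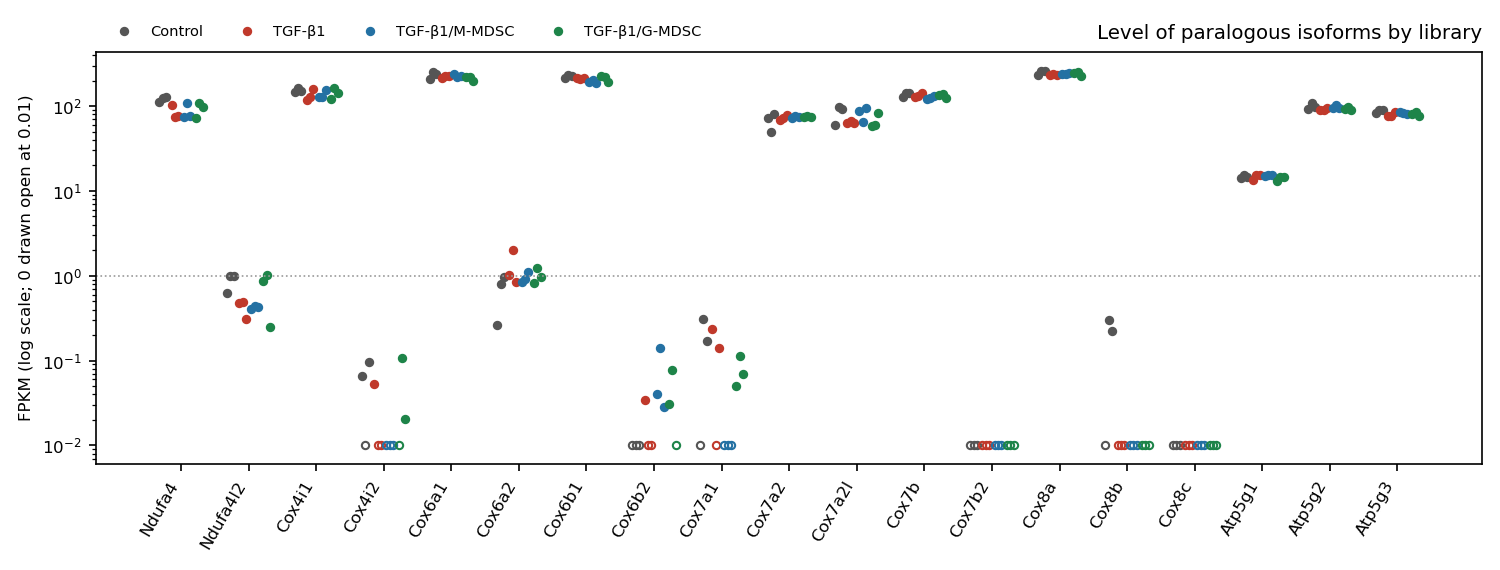
FPKM (y axis, log scale) of the paralogous isoforms (x axis) in each of the 12 libraries, coloured by group, with libraries listed at 0 drawn as open points at 0.01 and a dotted line at the filter of 1 FPKM. The widely expressed forms lie above 10 FPKM in every library, and the tissue forms at 2.03 FPKM or less.

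The comparison of TGF-β1 with Control asks how the respiratory chain genes respond to the myofibroblast stimulus. Small decreases prevailed, and most of the called members were accessory subunits of complex I, with fold changes of 0.759 (Ndufa5) to 1.19 (Uqcrq). Of the 82 tested members, 12 fell and 1 rose. The falling members made up 14.6% of the list, against 17.9% of all genes tested (2153 genes), and the rising member 1.22%, against 16.1% (1929 genes). Which of the falling shares was larger depended on the scaling, the tool, the filter and the libraries. It was that of the members with DESeq2 (20.7% against 19.0%), with FPKM of at least 5 (20.8% against 19.4%) and without Control replicate 1 (18.3% against 17.4%), and with limma on log2(FPKM + 1) (30.5% against 22.7%). With library totals alone, 24 members fell and 1 rose, and 2724 genes fell and 1474 rose over all genes tested, so that 29.3% of the members fell against 22.7% of all genes. The estimated change was negative for 61 members, with a median log2 fold change of -0.09, against 0.0005 over all genes tested. By FPKM, the TGF-β1 libraries lay wholly under the Control libraries for 32 members (39.0%, against 30.0% of all genes tested) and wholly above for 1 member (1.22%, against 16.6%). The rule of the study, more than 2-fold or less than 0.5-fold at an unadjusted p under 0.05, called 0 members by edgeR, against 6.74% of all genes tested, while 25 members had an unadjusted p under 0.05. A median taken over the members in each library, relative to the TGF-β1 mean on the log2 scale, was 0.02, 0.15 and 0.09 in Control and -0.05, 0.01 and 0.06 in the TGF-β1 libraries. Control replicate 1 thus lay below TGF-β1 replicate 3, and the groups overlapped in this median.

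By complex, 11 of 44 complex I members (25.0%) fell, against 17.9% of all genes tested, and none rose, against 16.1%. The median log2 fold change in complex I was -0.12. Of the 29 accessory subunits 9 fell and 25 had negative estimates. Of the 7 core subunits 1 fell and 3 had negative estimates, and of the 8 assembly factors 1 fell and 5 had negative estimates. In complex III, 1 of 8 members fell and 1 rose, and the median was -0.06. None of the 13 tested members of complex IV was called by edgeR (median -0.02, with 1 at an unadjusted p under 0.05), while DESeq2 and limma each called 1. Of the 17 in complex V edgeR called 0 (median -0.09, with 4 at an unadjusted p under 0.05), DESeq2 2 and limma 5. Without Control replicate 2, only 3 members of any complex were called lower by edgeR. The differences between complexes and between roles were not tested.

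**Figure D3:**
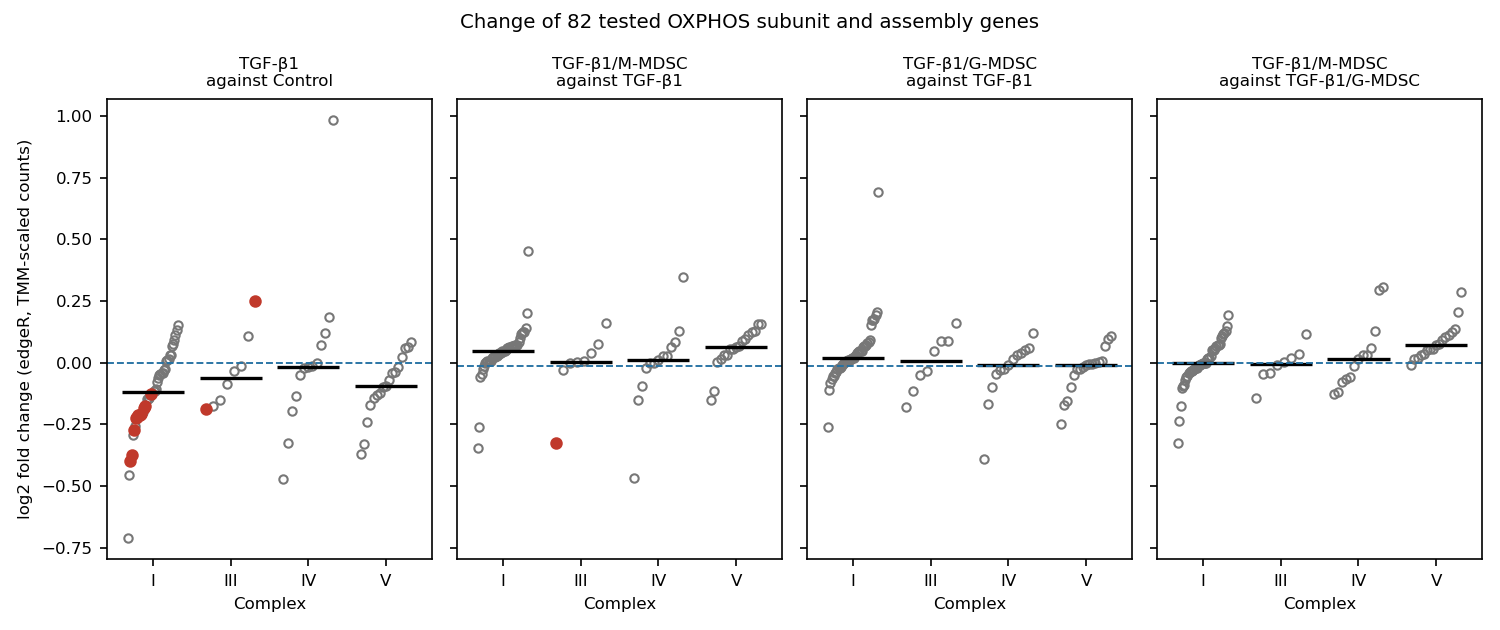
The log2 fold change (y axis) of each of the 82 tested members, by complex (x axis), in the 4 comparisons (panels), with called members filled in red, a black bar at the median of the complex and a dashed line at the median of all genes tested. Red points are 13 members for TGF-β1 against Control, of which 12 lie below 0, and Uqcrh for M-MDSC supernatant against TGF-β1.

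Ndufv3 (ENSMUSG00000024038, chr17:31520115-31531331 on the plus strand), an accessory subunit beside the NADH-oxidising site of complex I, fell with the smallest p-value of all members. It was at 18.3, 18.8 and 19.8 FPKM in Control and at 13.8, 14.6 and 13.8 FPKM with TGF-β1. The groups were far apart, with a log2 fold change of -0.38 ± 0.05 (SE; edgeR adjusted p = 0.000179), or 0.771-fold. Ndufa5 (ENSMUSG00000023089, chr6:24518666-24527570 on the minus strand), a subunit of the arm that faces the matrix, fell most among those called, with a log2 fold change of -0.40 ± 0.13 (SE; edgeR adjusted p = 0.0343). It was at 31.1, 40.0 and 33.5 FPKM in Control and at 25.0, 27.1 and 24.2 FPKM with TGF-β1, so Control replicate 2 stood above the others. Ndufa9, which lies near the ubiquinone site, was at 50.0, 54.6 and 52.8 FPKM in Control against 41.6, 43.9 and 45.1 FPKM with TGF-β1. Its log2 fold change was -0.21 ± 0.05 (SE; edgeR adjusted p = 0.00684). Ndufv3 and Ndufa9, with the rising Uqcrq, were the members whose call held in each of 17 alternative settings, including each library left out and excluding only the study's rule.

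The other complex I members that fell were spread over the arms of the enzyme. Ndufa3, a subunit of the membrane arm, went from 48.3 ± 4.07 to 38.4 ± 1.17 FPKM (SD, n = 3), with a log2 fold change of -0.27 ± 0.09 (SE). Ndufa7, of the matrix arm, went from 46.2 ± 4.40 to 37.9 ± 1.03 FPKM. In the distal membrane arm, Ndufb11 fell from 88.0 ± 6.62 to 72.7 ± 3.71 FPKM, Ndufb7 from 16.4 ± 1.23 to 13.6 ± 0.199 FPKM and Ndufb6 from 58.5 ± 2.62 to 49.4 ± 0.881 FPKM. Ndufa13, also of the membrane arm, went from 66.2 ± 3.47 to 56.4 ± 3.31 FPKM. Ndufs3 was the sole core subunit called, at 32.6, 33.2 and 33.8 FPKM in Control and 28.3, 29.6 and 29.8 FPKM with TGF-β1, a log2 fold change of -0.12 ± 0.04 (SE). Ndufaf7, an assembly factor of complex I with methyltransferase activity, went from 5.40 ± 0.300 to 4.50 ± 0.103 FPKM. For all of these the Control and TGF-β1 libraries did not overlap, and edgeR adjusted p-values lay between 0.0144 (Ndufb6) and 0.0447 (Ndufaf7). Each of these calls was lost with at least 1 library left out, and without Control replicate 2 the number of members called was 4.

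In complex III the calls went in opposite directions. Uqcrq (ENSMUSG00000044894, chr11:53427922-53430831 on the minus strand), a small subunit that contacts cytochrome b, rose from 53.2, 57.7 and 59.3 FPKM in Control to 61.3, 64.4 and 69.0 FPKM with TGF-β1. Every TGF-β1 library lay above every Control library, and the log2 fold change was 0.25 ± 0.06 (SE; edgeR adjusted p = 0.0065). Uqcr11, another small subunit, fell from 74.1, 85.5 and 80.4 FPKM to 65.8, 67.9 and 69.1 FPKM, a log2 fold change of -0.19 ± 0.06 (SE; edgeR adjusted p = 0.0369). Uqcr10 was at 104, 114 and 103 FPKM against 83.4, 89.5 and 100.2 FPKM, and missed the threshold at an edgeR adjusted p of 0.0804. The large matrix-side subunits Uqcrc1 and Uqcrc2 and the Rieske protein Uqcrfs1, which carries the iron-sulfur cluster, were not called by edgeR.

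**Figure D4:**
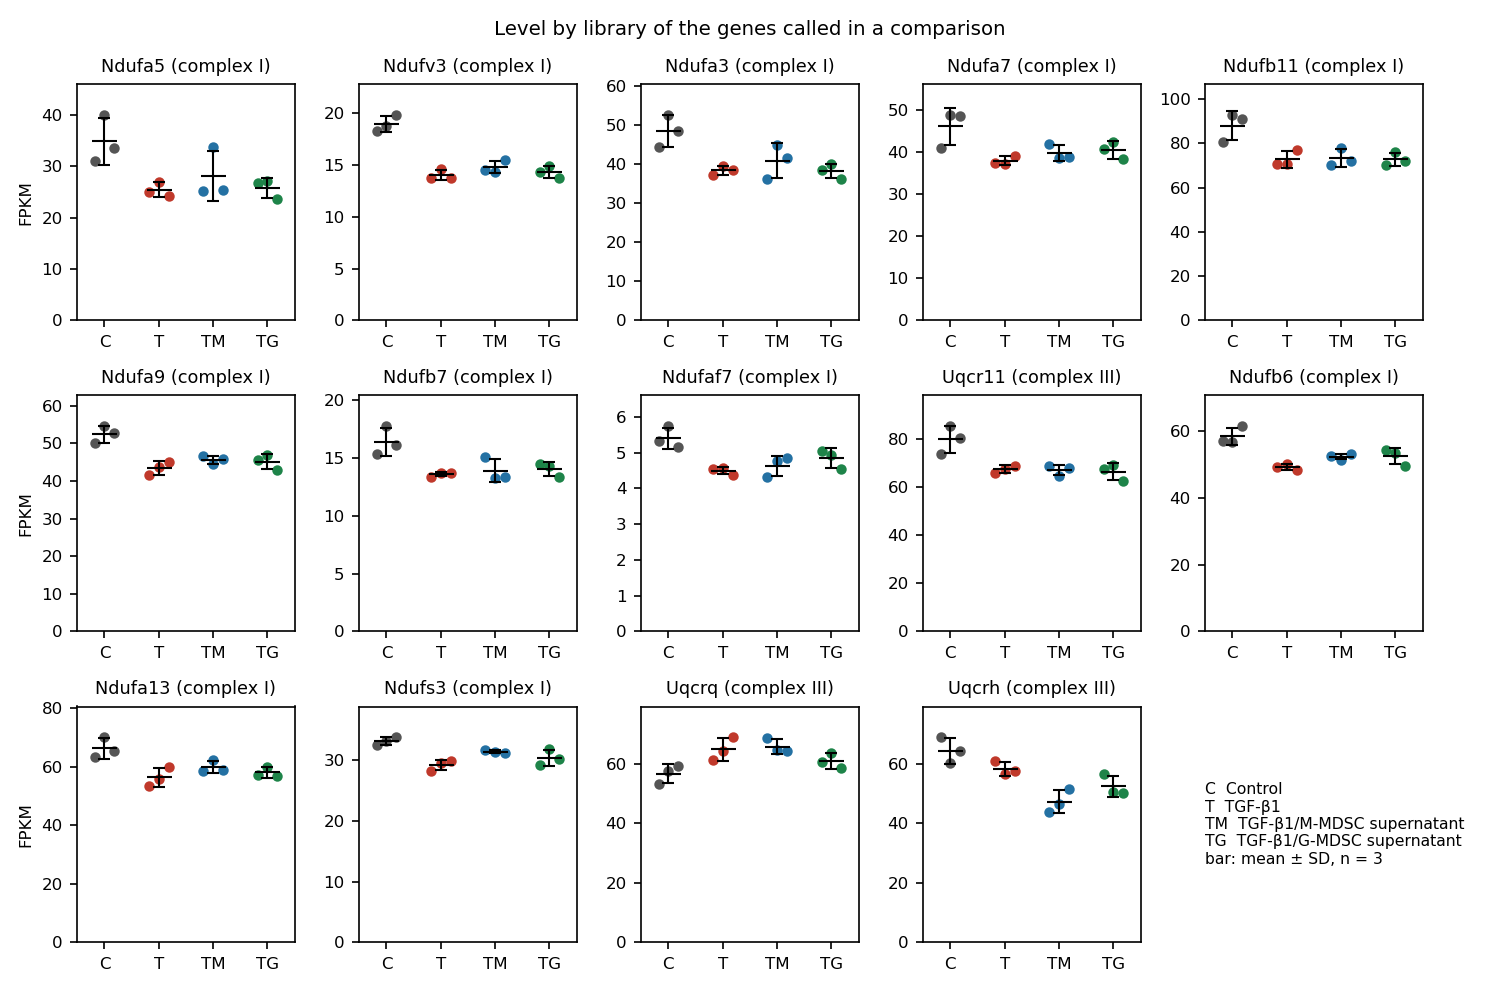
FPKM (y axes, from 0) of the 14 members called in TGF-β1 against Control or in M-MDSC supernatant against TGF-β1, in each library (points) of the groups (x axes), with the mean and SD. Ndufv3 lies at 18.3 to 19.8 FPKM in Control and at 13.7 to 15.5 FPKM in all other libraries, and Uqcrh is lowest with M-MDSC supernatant, at 43.8 to 51.4 FPKM.

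Some members varied widely within groups, and none of the following was called by edgeR with all libraries. Cox6a2, described above, had the largest estimate of all, a log2 fold change of 0.98 ± 0.45 (SE; edgeR adjusted p = 0.121), at 0.263, 0.798 and 0.977 FPKM in Control and 1.03, 2.03 and 0.842 FPKM with TGF-β1. Ndufaf3, an assembly factor of low level, was at 1.43, 2.29 and 2.18 FPKM in Control and 0.997, 1.06 and 1.39 FPKM with TGF-β1, a log2 fold change of -0.71 ± 0.25 (SE; edgeR adjusted p = 0.0503). Ndufa4 was at 113, 125 and 129 FPKM in Control and at 104, 74.2 and 75.8 FPKM with TGF-β1 (log2 fold change -0.47 ± 0.19 SE, edgeR adjusted p = 0.0804). The supernatant groups also varied in Ndufa4, with 108 FPKM in M-MDSC replicate 2 against 74.2 and 75.5 FPKM in the others, and 73.3 FPKM in G-MDSC replicate 1 against 109 and 98.4 FPKM. Cox7a2l, which helps to join complexes III and IV, was at 60.2, 97.0 and 93.5 FPKM in Control, at 63.1, 65.9 and 63.5 FPKM with TGF-β1, at 88.6, 64.6 and 95.2 FPKM with M-MDSC and at 58.4, 59.6 and 83.4 FPKM with G-MDSC supernatant. Each library of Cox7a2l thus lay either near 60 or above 80 FPKM, whatever its group. The assembly factor Ndufaf4 was at 2.23 to 3.18 FPKM in 10 libraries, at 6.79 FPKM in M-MDSC replicate 3 and at 7.88 FPKM in G-MDSC replicate 1. Atp5j2, the f subunit of the ATP synthase, was at 41.4 to 43.1 FPKM in Control and at 32.9, 25.4 and 36.6 FPKM with TGF-β1. These members were singled out after their values were seen. The median coefficient of variation within groups was 6.23% over the tested members, against 8.32% over all genes tested, and 3 members exceeded 20%.

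The counts of some members are uncertain because nearly identical transcripts, mostly of processed pseudogenes (intronless copies of an mRNA), are counted separately from them. A search of GENCODE M21 transcripts found 46 copies of 26 members, at 95% identity or more over at least 150 bases, of which 42 are annotated as processed pseudogenes and 4 as other types. In 10 members the copies held over 10% of the counts of gene and copies together. Ndufa12, an accessory subunit, had 70.2% of these counts on Ndufa12-ps (chromosome 5, 130188395 to 130188796), and Atp5g1 had 43.4% on Gm10039 (chromosome 11, 100361716 to 100362126). The copies differ from the coding sequence by 2 mismatches over 402 bases and by 1 mismatch over 411 bases. A stretch that holds a mismatch is printed in capitals at that base, where A46G and G64A give the base of the gene, the position counted from 1 at the first base printed, and the base of the copy.
Ndufa12: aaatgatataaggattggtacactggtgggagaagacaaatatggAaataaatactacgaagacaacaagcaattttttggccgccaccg
Ndufa12-ps: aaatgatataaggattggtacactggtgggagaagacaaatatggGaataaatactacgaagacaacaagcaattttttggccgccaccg
Atp5g1: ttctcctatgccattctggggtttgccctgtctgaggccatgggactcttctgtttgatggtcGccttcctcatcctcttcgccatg
Gm10039: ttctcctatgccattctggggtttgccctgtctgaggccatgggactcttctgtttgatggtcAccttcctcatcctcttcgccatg

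Ndufa12 had 3573, 5468 and 3176 counts in Control and 2331, 3009 and 3258 with TGF-β1, while Ndufa12-ps had 7650, 7437 and 8972 against 8187, 7880 and 7838. Control replicate 2 was highest for the gene and lowest of its group for the copy. Ndufa12 alone had a log2 fold change of -0.45 ± 0.19 (SE; edgeR adjusted p = 0.0937), and -0.11 with copies summed (adjusted p = 0.137), so its value is uncertain. With copies summed, Uqcr11 (-0.15, edgeR adjusted p = 0.0712) and Ndufs3 (-0.12, edgeR adjusted p = 0.07) also lost their calls, and 11 members were called in all.

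The comparison of TGF-β1/M-MDSC supernatant with TGF-β1 asks what the M-MDSC supernatant adds, its medium included. Uqcrh (ENSMUSG00000063882, chr4:116066965-116075034 on the minus strand), the hinge protein that helps cytochrome c1 to bind cytochrome c, fell, and was the sole member called. It was at 61.0, 56.4 and 57.4 FPKM with TGF-β1 and at 43.8, 46.5 and 51.4 FPKM with M-MDSC supernatant, and the groups did not overlap. The log2 fold change was -0.32 ± 0.07 (SE; edgeR adjusted p = 0.0292), or 0.799-fold. Its level was 68.8, 60.1 and 64.2 FPKM in Control and 56.5, 50.6 and 50.1 FPKM with G-MDSC supernatant. The falling share of the members was 1.22%, against 1.95% of all genes tested, and 0 members rose by edgeR, against 2.83%. DESeq2 and limma also called Uqcrh alone. The study's rule called 0 members, against 2.18% of all genes tested, with 6 members at an unadjusted p under 0.05. The call of Uqcrh was lost without any 1 of the 3 TGF-β1 libraries or without M-MDSC replicate 1 or 2, with adjusted p-values between 0.0702 and 0.112.

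Estimates under M-MDSC supernatant were mostly small and positive, at 64 of 82 members, with a median log2 fold change of 0.04, against -0.01 over all genes tested. They were positive for 37 of 44 complex I members (median 0.05) and 15 of 17 complex V members (median 0.06), and for 5 of 8 and 7 of 13 in complexes III and IV. The median over the members in each library, relative to the TGF-β1 mean, was 0.04, 0.02 and 0.04 with M-MDSC supernatant. These values lay within the range of the TGF-β1 libraries, -0.05 to 0.06. The M-MDSC libraries lay wholly above the TGF-β1 libraries in FPKM for 10 members (12.2%, against 13.4% of all genes tested) and wholly below for 3 (3.66%, against 10.6%). Ndufa6, a subunit of the matrix arm, was at 26.5, 27.0 and 27.0 FPKM with TGF-β1 and 32.4, 30.8 and 30.9 FPKM with M-MDSC supernatant, a log2 fold change of 0.20 ± 0.08 (SE; edgeR adjusted p = 0.202). Atp5h, the d subunit of the peripheral stalk that holds the ATP synthase still, was at 59.5, 61.9 and 64.4 FPKM against 70.7, 71.2 and 68.3 FPKM (0.16 ± 0.06 SE, edgeR adjusted p = 0.202). Ndufs8, a core subunit with iron-sulfur clusters, was at 44.0, 46.4 and 37.8 FPKM against 34.5, 37.7 and 36.6 FPKM (-0.26 ± 0.09 SE, edgeR adjusted p = 0.175). Ndufa11 was at 24.8 to 26.4 FPKM with TGF-β1 and at 26.0, 17.7 and 17.3 FPKM with M-MDSC supernatant, where replicate 1 differed from the others. Its log2 fold change was -0.35 ± 0.14 (SE; edgeR adjusted p = 0.245), and -0.56 without M-MDSC replicate 1 (adjusted p = 0.00628), where it was called. Among the members that fell with TGF-β1, Ndufv3 had a log2 fold change of 0.05 ± 0.05 (SE) under M-MDSC supernatant, Ndufa5 0.12 ± 0.13, Ndufa9 0.05 ± 0.05 and Ndufb6 0.06 ± 0.05, and none of the 12 was called. Since the TGF-β1 libraries are shared by both comparisons, these values are not independent of the decrease.

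With the G-MDSC supernatant, compared with TGF-β1 alone, edgeR called 0 members, DESeq2 0 and limma 0, and 3 members had an unadjusted p under 0.05. Over all genes tested, 3.10% rose (372 genes) and 2.46% fell (296 genes), or 446 and 216 genes with scaling by library totals alone. The study's rule called 0 members, against 2.17% of all genes tested. The median log2 fold change of the members was 0.01, against -0.01 over all genes tested, with 44 positive estimates of 82. It was 0.02 in complex I, 0.01 in complex III, -0.01 in complex IV and -0.01 in complex V. The G-MDSC libraries lay wholly above the TGF-β1 libraries for 4 members (4.88%, against 13.2%) and wholly below for 0 (against 9.55%). Ndufs8 had the same estimate as under M-MDSC supernatant, -0.26 ± 0.09 (SE; edgeR adjusted p = 0.16), from 36.7, 39.8 and 32.6 FPKM with G-MDSC supernatant. Uqcrh was at -0.18 ± 0.07 (SE; edgeR adjusted p = 0.227). Uqcrc2, a large subunit of complex III, was at 55.4, 54.9 and 57.9 FPKM with TGF-β1 and 62.1, 61.6 and 58.1 FPKM with G-MDSC supernatant, a log2 fold change of 0.09 ± 0.04 (SE; edgeR adjusted p = 0.288). Ndufv3 and Ndufa5 had estimates of -0.001 and -0.005.

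The direct comparison of the supernatants, TGF-β1/M-MDSC against TGF-β1/G-MDSC, tests the difference between their effects. By edgeR 0 members were called, as by DESeq2 and limma, and 5 members had an unadjusted p under 0.05. Few genes of any kind were called, with 0.0999% of all genes tested higher and 0.025% lower with M-MDSC supernatant. The study's rule called 0 members, against 0.549% of all genes tested. The median log2 fold change was 0.02 over the members and 7.01e-05 over all genes tested. In complex V 16 of 17 estimates were positive, with a median of 0.07, against 20 of 44 in complex I. The median over the complex V members in each library, relative to the TGF-β1 mean, was 0.07, 0.03 and 0.06 with M-MDSC supernatant. With G-MDSC supernatant it was -0.01, 0.06 and -0.07, so the groups overlapped. Without G-MDSC replicate 3, the lowest, the median change over all members was -0.02. The M-MDSC libraries lay wholly above the G-MDSC libraries for 8 members (9.76%, against 5.97%) and wholly below for 0 (against 6.03%). Atp5h had the smallest p among members, at 70.7, 71.2 and 68.3 FPKM against 63.9, 63.5 and 55.4 FPKM, with a log2 fold change of 0.21 ± 0.06 (SE; edgeR adjusted p = 0.415). For Uqcrh the difference was -0.14 ± 0.07 (SE; edgeR adjusted p = 0.839), so the decrease of Uqcrh under M-MDSC supernatant was not shown to differ from the value under G-MDSC supernatant. Ndufa6 was at 32.4, 30.8 and 30.9 FPKM against 30.1, 27.7 and 24.6 FPKM (0.19 ± 0.08 SE, edgeR adjusted p = 0.732).

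The genes that the members work with did not move as a block. Cycs, cytochrome c, the carrier between complexes III and IV, rose with TGF-β1. It was at 39.8, 37.7 and 41.4 FPKM in Control and 50.7, 47.8 and 50.1 FPKM with TGF-β1, a log2 fold change of 0.38 ± 0.06 (SE; edgeR adjusted p = 0.00078). It rose further with M-MDSC supernatant, to 64.0, 63.6 and 56.5 FPKM (0.29 ± 0.06 SE, edgeR adjusted p = 0.0258). With G-MDSC supernatant it was at 53.9, 61.7 and 58.6 FPKM (0.20 ± 0.06 SE against TGF-β1, edgeR adjusted p = 0.103), where DESeq2 called it and limma did not. Compared directly, M-MDSC against G-MDSC supernatant gave a log2 fold change of 0.08 for Cycs (edgeR adjusted p = 0.94), so no difference was shown. Cyc1, the cytochrome c1 of complex III, was at 83.9 ± 11.8 FPKM in Control and 84.0 ± 3.97 FPKM with TGF-β1 and was not called in any comparison.

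In complex II, which feeds electrons from the citric acid cycle, 2 of 4 subunits fell with TGF-β1 and none rose by edgeR, against 17.9% and 16.1% of all genes tested, and limma called 3 lower. Sdhc, a membrane anchor, was at 21.3 ± 1.19 FPKM in Control and 16.4 ± 0.113 FPKM with TGF-β1 (SD, n = 3; log2 fold change -0.32 ± 0.04 SE, edgeR adjusted p = 0.000224), and Sdhd had a log2 fold change of -0.16 ± 0.05 (SE; edgeR adjusted p = 0.0382). Of the 13 mitochondrially encoded subunits, 0 were called by edgeR, DESeq2 or limma with TGF-β1 (median log2 fold change -0.05, with 0 at an unadjusted p under 0.05 by edgeR) or with G-MDSC supernatant (1 at an unadjusted p under 0.05 by edgeR). With M-MDSC supernatant mt-Nd3, a core subunit of complex I, fell from 583 ± 26.2 to 511 ± 26.3 FPKM (SD, n = 3; log2 fold change -0.21 ± 0.05 SE, edgeR adjusted p = 0.0468), and the median of the 13 was -0.15. The call was lost without any 1 of the 6 libraries compared (edgeR adjusted p = 0.0565 to 0.167). M-MDSC replicate 1 was the lowest of its group for all 13, and without it the median was -0.07. DESeq2 called 1 of the 13 there and limma 0. The sequenced mRNA was selected by poly(A), so mitochondrial levels are compared only between groups. Mitochondrial mRNAs took 3.28% to 3.72% of counts in Control, 3.08% to 3.31% with TGF-β1, 2.77% to 3.20% with M-MDSC and 3.14% to 3.39% with G-MDSC supernatant.

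The other lists of the pathway are given for TGF-β1 against Control by edgeR, to be read against the 16.1% of all genes tested that rose and the 17.9% that fell. Among assembly factors for complex IV, 2 of 23 rose and 2 fell, among them Coa3, which stabilises newly made Cox1, from 31.9 ± 3.40 to 17.3 ± 2.33 FPKM (SD, n = 3; log2 fold change -0.83 ± 0.12 SE, edgeR adjusted p = 0.000248) and Cox14 at -0.37 ± 0.07 (SE; edgeR adjusted p = 0.00226). For complex III, 2 of 5 fell and none rose, with Uqcc3 at -0.40 ± 0.10 (SE) and Uqcc2 at -0.27 ± 0.06 (SE). Of the complex I factors without an Nduf name 1 of 8 rose (Timmdc1, 0.24 ± 0.07 SE) and 1 fell (Tmem126b, -0.36 ± 0.07 SE). Of the assembly factors of complex II and of complex V, 3 each tested, edgeR called 0, with 0 and 1 at an unadjusted p under 0.05. DESeq2 called 1, of complex V, and limma 0. In the citric acid cycle 2 of 14 genes rose (Idh3a and Dld) and 2 fell (Ogdh and Idh3b), while limma on FPKM called 2 higher and 6 lower. Of pyruvate dehydrogenase and its kinases, 1 of 10 rose (Pdhx) and 3 fell, or 0 and 4 by limma on FPKM. Those that fell included Pdk1, a kinase that switches the dehydrogenase off, from 3.20 ± 0.181 to 1.33 ± 0.246 FPKM (SD, n = 3; log2 fold change -1.21 ± 0.13 SE, edgeR adjusted p = 3.2e-05). Among carriers and quinone genes 3 of 18 rose and 4 fell, against 0 higher and 9 lower by limma on FPKM. The smallest p was that of Etfb, a subunit of the electron transfer flavoprotein that brings electrons from fatty acid oxidation to ubiquinone, at -0.96 ± 0.09 (SE; edgeR adjusted p = 1.2e-05). Slc25a4, the ADP/ATP carrier, had a log2 fold change of -0.24 ± 0.05 (SE; edgeR adjusted p = 0.00199). Of 13 tested regulators of mitochondrial biogenesis 3 rose (Tfb2m, Twnk and Polrmt) and Yy1 fell. Among the lists of this paragraph edgeR made 1 further call with the supernatants, Tfb2m, a mitochondrial transcription factor, which fell with M-MDSC supernatant (-0.45 ± 0.10 SE, edgeR adjusted p = 0.0249). With G-MDSC supernatant DESeq2 also called 2 genes of the pyruvate dehydrogenase list higher.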

How the data were processed

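The cells, groups and sequenced mRNA (poly(A)-selected, strand-marked, paired-end) are as described above. The authors trimmed reads, aligned them to GRCm38 with HISAT2 2.0.4 and assembled transcripts with StringTie 1.3.4d. The deposited table holds raw counts, whose counting tool is not given in the sources used here, and the FPKM calculated by the authors, with 0 written as 0.0001. Columns of the authors' own comparisons were not used.

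Members were taken by symbol and type, and members and lists were chosen with earlier results of these data known. Counts were fitted with edgeR 4.0.16 (quasi-likelihood F test, two-sided, no covariate, R 4.3.3) over the 12 libraries, and SEs are the estimate divided by the square root of F. No libraries of a group agreed within sampling noise. On simulated data for TGF-β1 against Control, with 12016 genes, 81 of 100 genes changed by 1 on the log2 scale and 43 of 100 changed by 0.5 were recovered, with 3 false calls.

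Genes named are, per comparison, the 6 called members with the largest change, the paralogous isoforms, the highest and lowest member of each complex, and up to 4 genes per pathway list with the smallest p-values, with Cyc1 and Cycs. Others, such as the remaining called members and those of wide spread, were chosen after their values were seen. Alternatives covered scaling, filter, unit and pseudocount (limma 3.58.1 on log2(FPKM + 1) and log2(FPKM + 0.1)), DESeq2 1.42.0, the groups fitted, a replicate block, counts divided by 4 (44.3% of nonzero counts up to 12 were multiples of 4), the study's rule and leaving out each library. Summing near-identical copies, found with blastn 2.17.0, was added after the data were seen. Promoters came from RefSeq (GRCm38.p6). Coordinates are GRCm38.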

Additional observations from a re-analysis of the deposited data

How the results depend on the processing

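Calls of members for TGF-β1 against Control depended on the settings. Against 13 members as reported, 25 were called with scaling by library totals only, 26 with limma on either FPKM scale, 8 with only the 2 groups in the fit, 3 with no filter on low values and 0 under the study's rule. The number was 18 with DESeq2, 17 with FPKM of at least 5, 14 with counts divided by 4 and 11 with copies summed. Leaving out single libraries gave from 4 to 16 members. Without Control replicate 2 there were 4, without Control replicate 3 there were 5, and without TGF-β1 replicate 1 or 2 there were 6. The median log2 fold change of the members for this comparison stayed negative throughout. It was -0.15 with library totals only and with limma on log2(FPKM + 1) (-0.145) and log2(FPKM + 0.1) (-0.147), and it ranged from -0.147 to -0.0562 with a library left out. The lower end was reached without TGF-β1 replicate 3.

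For M-MDSC supernatant against TGF-β1, 0 members were called with no filter, with only the 2 groups fitted, under the study's rule, and without TGF-β1 replicate 1, 2 or 3 or M-MDSC replicate 2. Leaving out libraries gave 0 to 1 members, and the call without M-MDSC replicate 1 was Ndufa11, not Uqcrh. The members' median was 0.02 to 0.09 there. For G-MDSC supernatant against TGF-β1 (-0.02 to 0.05 with a library left out) and for M-MDSC against G-MDSC supernatant (-0.02 to 0.05) the median changed sign with the library left out, and 0 members were called under every alternative. For TGF-β1 against Control, the near-zero estimates of Cox7b and Cox6a1 changed sign. Cox7b was at 0.0065 with no filter, 0.0007 with a replicate block and 0.0004 with counts divided by 4. It ranged from -0.0624 to 0.0239 with a library left out, and Cox6a1 from -0.1034 to 0.0445. Cox7a2, with a main estimate of 0.19 ± 0.14 (SE), ranged from -0.0024 to 0.3271 and changed sign only without Control replicate 2. None of these was called.

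Same-numbered libraries of different groups showed no shared deviation on average (mean correlation -0.0047 over 18 pairs, from -0.174 to 0.083). With 3 libraries per group this cannot settle whether the numbers pair cultures, and the main fit did not pair them. With a replicate block, 11 members were called for TGF-β1 against Control, 1 for M-MDSC supernatant and 0 in the other comparisons. The 5 isoforms with few counts were tested only with no filter, and adjusted p-values of edgeR were 0.223 or higher in every comparison.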
